A study of Mus musculus with 6 samples.

Results

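Potassium channel genes were described in mouse retina on postnatal day 2 (P2). They were taken by name, as rows whose symbol is Kcn followed by letters and a number, with the single exception of Kcnj10, and 83 of the 20175 genes in the table matched. Of these, 70 had a mean of at least 10 normalised counts over the 6 libraries and are the members below. By name, 32 of the 38 voltage-gated pore subunits were kept, 10 of the 13 inward rectifiers, all 10 two-pore channels, all 8 calcium- and sodium-activated channels, and 10 of the 14 auxiliary subunits. The 13 that were not kept (Kcne1, Kcne3, Kcne4, Kcng2, Kcng3, Kcng4, Kcnh3, Kcnj13, Kcnj15, Kcnj16, Kcnmb1, Kcnq1 and Kcns3) had means of 0.317 to 9.32 normalised counts. Just inside the minimum lay Kcnj8 (10.1) and Kcnj14 (11.2), and just outside it Kcnj13 (9.32) and Kcne1 (8.90).

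The 6 samples were 3 retinas labelled Zeb2 loxp/loxp αCre, called Zeb2 mutant here, and 3 retinas labelled control, all taken at P2. In the mutants both copies of Zeb2 carry loxP sites, and αCre is a Cre recombinase driven by a retinal enhancer of Pax6 that is active in progenitors of the peripheral retina, so central retina would keep Zeb2. The sources used here do not give the controls' genotype, the strain or how many animals made up a sample. Zeb2 is a transcriptional regulator with zinc fingers and a Smad-binding region. Zeb2 itself had 5581.4, 4273.6 and 5049.7 normalised counts in Zeb2 mutant retinas, against 5989.7, 6448.7 and 5916.7 in control retinas, so every mutant library lay below every control library. The difference, a log2 fold change of -0.31 ± 0.090 (SE), did not pass the test over all genes (limma adjusted p = 0.129), and p was 0.1 in the exact 2-sided permutation test, which cannot go lower with 3 against 3 samples. Zeb2 was called by DESeq2 (adjusted p = 0.0158), which called 5.4% of all genes tested. In limma it was called without mutant library 1 (adjusted p = 0.0375), the mutant library nearest to the controls. That fit called 3.74% of all tested genes, against 1.15% with every library kept. Since the labels do not tie the samples of a group to separate animals, the p-values reflect the spread among these samples alone, and that spread may be technical.

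Polyadenylated RNA was sequenced, and the deposited normalised counts correspond to 26041200 to 28250928 reads per mutant library and 26064213 to 32614805 per control library, with 488 to 655 of the 20175 genes at 0. Any pair of libraries within a group differed beyond sampling noise (chi-square per degree of freedom 8.04 to 14.9). Retinal markers were present in every library: 8 ganglion cell genes summed to 16716 to 19518 normalised counts in mutants and 18026 to 18459 in controls, while of 5 bipolar cell genes Vsx1 was at 0 in control library 1.

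Potassium channels let potassium ions leave or enter the cell and so set the resting potential and shape the electrical response. Voltage-gated channels open on depolarisation and repolarise the cell; inward rectifiers and two-pore channels carry current near rest; calcium- and sodium-activated channels open after activity; auxiliary subunits change the traffic and gating of the pore-forming ones. In the retina, rods and cones use the silent subunit Kcnv2 in their inner segments, starburst amacrine cells use Kcnc1 and Kcnc2, and Müller glia buffer potassium through inward rectifiers. At P2 rods, bipolar cells and Müller glia are still being born.

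None of the 70 potassium channel genes passed the test between Zeb2 mutant and control retinas. The members' summed level was 28403 ± 1049 normalised counts in mutants and 28285 ± 837 in controls (SD, n = 3 each). limma, with Benjamini-Hochberg adjustment over all 16064 genes tested, called 0 members, where it called 1.15% of all tested genes, 0.928% higher and 0.218% lower. The quasi-likelihood test of edgeR, run on recovered reads, also called 0 members, where it called 1.12% of all genes. DESeq2 on those reads called 4 members, all higher in mutants and among them Kcnd3, Kcnh6 and Kcnk1, which is 5.71% of the members beside 5.4% of all genes tested, or 3.32% called higher. At an unadjusted limma p under 0.05 there were 15 members, 10 higher and 5 lower, or 21.4% of the members beside 17.3% of all tested genes, 9.01% higher and 8.31% lower.

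In 20 members the groups did not overlap, 12 with every mutant library above every control library and 8 with every mutant library below. That is 28.6% of the members, beside 23.2% of all tested genes, of which 11.5% lay above and 11.7% below. The median log2 fold change of the members was -0.060, beside -0.0067 for all tested genes, with 42 members below 0 and 28 above. Under quantile scaling it was -0.12, beside -0.011 for all genes, and with a minimum of 50 normalised counts it was -0.11. Fold changes are on the log2(normalised count + 1) scale, and adding 1 makes those of low genes too small. For 36 members the unadjusted 95% interval of the log2 fold change lay within 0.5 on either side of 0. That is 51.4% of the members, beside 67.4% of all tested genes. These were mostly the better-covered genes: 34 of the 42 members with a mean of at least 100 normalised counts had such an interval, and 2 of the 28 below that mean. A change of less than about this size was not detectable in the low members at this depth and number of samples.

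**Figure D1:**
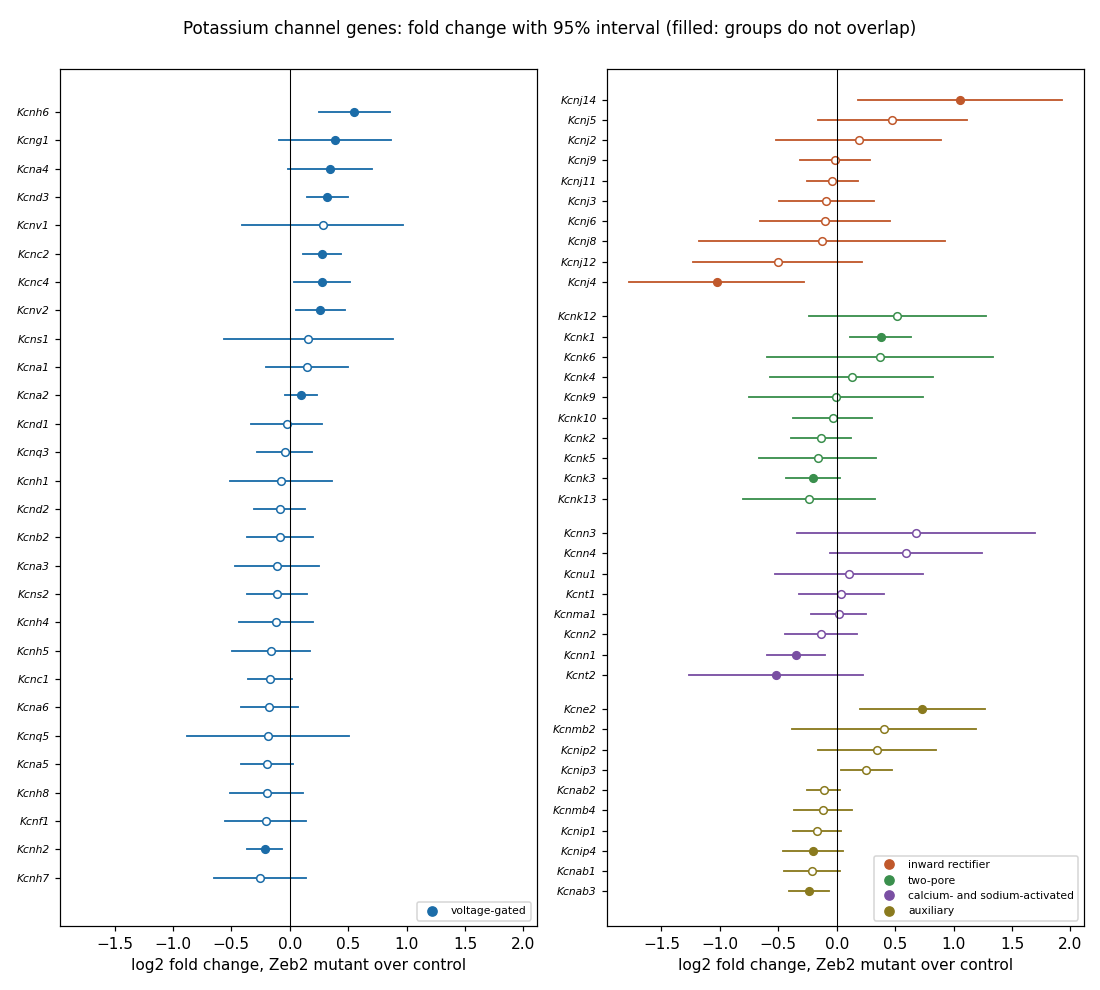
Log2 fold change of Zeb2 mutant over control retinas (horizontal axis) for 66 of the potassium channel genes, voltage-gated members at the left and the other subfamilies at the right, with the 95% interval from limma as a line. Filled points mark the 18 of these whose groups did not overlap, among them Kcnh6 at 0.55, Kcnj14 at 1.05 and Kcnj4 at -1.03.

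Promoters are shown for Kcnd3, Kcnh6 and Kcnk1, which DESeq2 called, and for Kcnn1, which limma called without mutant library 1, because ZEB-family proteins bind the E-box CACCTG through their zinc fingers. RefSeq windows (GRCm38.p6) of 250 bases before to 50 after a RefSeq start matched 49 of the 70 members by symbol. The gene coordinates given further below are from GENCODE M21, whose starts can differ. The windows of Kcnd3 and Kcnk1 end before those coordinates begin. CACCTG was searched on both strands, which is CAGGTG when read on the other strand; no other motif was searched. It was found in 20 of 69 windows of the members (29.0%) and in 6640 of 32851 windows in all (20.2%), or in 17 of 49 members and 22.6% of all genes with a window. These are counts of letters and say nothing of binding. The windows are given 5′ to 3′ on the gene's strand, with CACCTG or CAGGTG in capitals. Kcnd3 and Kcnh6 hold none, Kcnk1 holds 1, the upstream window of Kcnn1 holds 1 and the window at an internal start of Kcnn1 holds 2.
Kcnd3 (chr3:105451640-105451939, plus strand): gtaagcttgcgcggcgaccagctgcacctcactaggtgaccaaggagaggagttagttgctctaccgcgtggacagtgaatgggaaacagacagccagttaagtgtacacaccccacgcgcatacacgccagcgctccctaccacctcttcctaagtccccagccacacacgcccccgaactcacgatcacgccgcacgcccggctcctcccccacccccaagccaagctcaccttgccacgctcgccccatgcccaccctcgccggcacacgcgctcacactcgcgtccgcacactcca
Kcnh6 (chr11:106007898-106008197, plus strand): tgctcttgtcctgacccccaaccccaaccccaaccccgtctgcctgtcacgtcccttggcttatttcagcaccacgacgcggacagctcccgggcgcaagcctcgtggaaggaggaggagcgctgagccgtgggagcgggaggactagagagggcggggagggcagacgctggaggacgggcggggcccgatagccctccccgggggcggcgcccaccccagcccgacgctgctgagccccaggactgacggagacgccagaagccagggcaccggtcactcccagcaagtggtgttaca
Kcnk1 (chr8:125994852-125995151, plus strand): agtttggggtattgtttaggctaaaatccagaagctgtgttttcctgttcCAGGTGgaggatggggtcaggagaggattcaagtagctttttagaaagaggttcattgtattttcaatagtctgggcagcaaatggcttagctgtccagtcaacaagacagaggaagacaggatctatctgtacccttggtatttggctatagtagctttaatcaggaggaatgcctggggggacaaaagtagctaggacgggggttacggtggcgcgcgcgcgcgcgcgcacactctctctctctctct
Kcnn1 (chr8:70863209-70863508, minus strand): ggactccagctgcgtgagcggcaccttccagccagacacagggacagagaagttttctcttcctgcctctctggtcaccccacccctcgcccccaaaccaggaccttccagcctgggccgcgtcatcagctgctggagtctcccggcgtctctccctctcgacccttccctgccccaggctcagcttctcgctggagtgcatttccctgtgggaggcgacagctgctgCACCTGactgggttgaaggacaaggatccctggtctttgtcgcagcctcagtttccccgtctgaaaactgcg
Kcnn1 (chr8:70856959-70857258, minus strand): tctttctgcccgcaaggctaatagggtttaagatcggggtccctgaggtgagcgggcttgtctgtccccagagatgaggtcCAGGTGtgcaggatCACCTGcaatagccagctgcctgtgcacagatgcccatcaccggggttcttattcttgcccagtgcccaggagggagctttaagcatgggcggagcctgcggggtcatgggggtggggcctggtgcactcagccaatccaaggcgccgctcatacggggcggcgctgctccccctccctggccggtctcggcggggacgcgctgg

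Levels of different genes are compared here as normalised counts per kb of exon (the union of exons in GENCODE M21), since longer transcripts collect more reads. They spanned from 1.48 per kb in controls for Kcnk9, an acid-sensitive leak channel, to 649 per kb for Kcna5, a delayed rectifier. Kcna5, Kcnk1 and Kcnab2 were the 3 highest members in both groups. Kcna5 stood at 571 per kb in mutants and 649 per kb in controls, and Kcnk1, a two-pore channel with weak inward rectification, at 793 per kb in mutants and 605 per kb in controls. Their order was opposite in the groups, a difference that was not itself tested: in mutants Kcnk1 ranged from 668 to 956 and Kcna5 from 486 to 658, while in controls Kcnk1 ranged from 583 to 618 and Kcna5 from 635 to 665, without overlap in either group. Neither difference between the groups passed limma's test. Behind them, Kcnab2, a beta subunit of the Shaker-type channels, stood at 362 per kb in mutants and 390.0 per kb in controls, apart from Kcna5 and Kcnk1 in both groups. Kcnh2, the ERG channel gene, followed at 314 per kb in mutants and 364 per kb in controls.

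Median levels per kb, given without a test, were 59.5 in mutants and 66.4 in controls for the auxiliary subunits, 39.0 in mutants and 41.2 in controls for voltage-gated channels, 11.6 in mutants and 11.2 in controls for calcium- and sodium-activated channels, 10.6 in mutants and 9.36 in controls for two-pore channels, and 5.40 in mutants and 6.66 in controls for inward rectifiers. Within the two-pore family Kcnk1 stood far above the next members, Kcnk2 and Kcnk3. Kcnk2 stood at 57.4 per kb in mutants and 63.1 per kb in controls. Kcnk3 stood at 55.6 per kb in mutants and 63.9 per kb in controls. Within each group the ranges of Kcnk2 and Kcnk3 overlapped each other. Among the 10 inward rectifiers kept, which leave out Kcnj10, the highest was Kcnj11, the pore subunit of ATP-sensitive channels. It stood at 58.2 per kb in mutants and 59.8 per kb in controls.

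**Figure D2:**
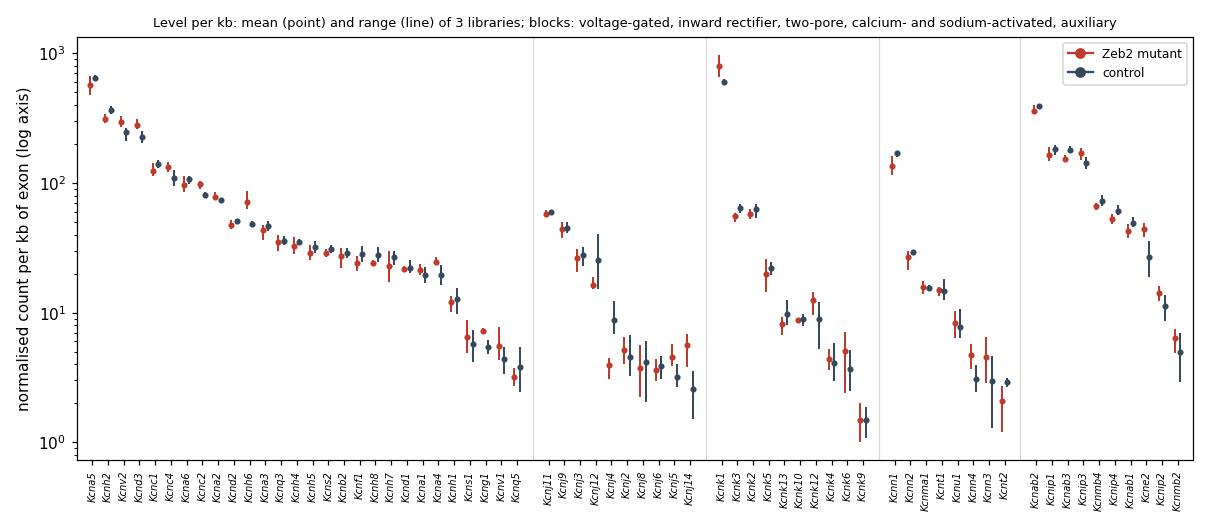
Normalised counts per kb of exon (log axis) for 66 members, in blocks by subfamily and ordered within a block by the control mean; points are means and lines the range of 3 libraries, Zeb2 mutant (red) left of control (dark). Kcna5 and Kcnk1 lead, with controls at 649 and 605 per kb, and 14 members lie below 5 per kb in controls.

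The 32 voltage-gated pore subunits held 11 of the 20 members whose groups did not overlap, 9 higher and 2 lower in mutants, which is 34.4% of the subfamily beside 23.2% of all tested genes, 11.5% above and 11.7% below. Their summed level was 18829 ± 905 normalised counts in mutants and 18563 ± 777 in controls (SD, n = 3 each). The median log2 fold change was -0.080, with 12 members above 0 and 20 below; it was -0.12 under quantile scaling and 0.012 without mutant library 2. The individual differences were small, from -0.26 for Kcnh7 to 0.55 for Kcnh6, both ERG-type channel genes.

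Kcnv2, whose product does not conduct alone and is known from the inner segments of rods and cones, had 1409.6, 1459 and 1641.3 in Zeb2 mutant retinas, against 1334.2, 1094.2 and 1338.7 in control retinas. The groups did not overlap, and the log2 fold change was 0.26 ± 0.092 (SE; limma adjusted p = 0.187). Kcnb2, a delayed rectifier gene, averaged 417 ± 66.1 in mutants and 440.1 ± 34.1 in controls (SD, n = 3 each), with overlapping groups.

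Kcnd3 (GRCm38 chromosome 3, 105452330 to 105674002, plus strand), which carries a rapidly inactivating A-type current, had 2540.3, 2660.7 and 2928.1 in Zeb2 mutant retinas, against 2157.4, 1987 and 2366.9 in control retinas. Mutant library 3 was the highest and control library 2 the lowest, and the groups did not overlap. The log2 fold change was 0.32 ± 0.076 (SE; limma adjusted p = 0.0845, DESeq2 adjusted p = 0.0048). Of the other A-type genes, Kcnd1 averaged 115 ± 3.31 in mutants and 118 ± 12.7 in controls and Kcnd2 246 ± 16.3 in mutants and 261 ± 8.55 in controls. For both, the groups overlapped, and their 95% intervals of the log2 fold change were -0.33 to 0.28 and -0.30 to 0.13.

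Among the EAG, ERG and ELK genes, 6 of 7 had negative fold changes, and the exception was Kcnh6 (GRCm38 chromosome 11, 106008124 to 106034549, plus strand), an ERG-type channel gene. Kcnh6 had 228.2, 303.8 and 232.6 in Zeb2 mutant retinas, against 172.5, 164.7 and 178.6 in control retinas. Mutant library 2 was the highest and the 3 controls lay within 164.7 to 178.6. The log2 fold change was 0.55 ± 0.13 (SE), or 1.48-fold (limma adjusted p = 0.0855, DESeq2 adjusted p = 0.0234). The more abundant paralog Kcnh2 averaged 1519.8 ± 98.2 in mutants and 1762 ± 103 in controls without overlap (log2 fold change -0.21, limma adjusted p = 0.145). The third ERG-type gene, Kcnh7, averaged 350.3 ± 88.4 in mutants and 412 ± 45.5 in controls with overlap. Per kb, Kcnh6 stood at 71.8 in mutants and 48.4 in controls, so Kcnh2 stayed the main ERG-type transcript in both groups. The EAG-type genes Kcnh1 and Kcnh5 averaged 88.0 and 116 in mutants against 93.5 and 129.8 in controls, and the ELK-type genes Kcnh4 and Kcnh8 averaged 129.7 and 111 in mutants against 139.8 and 128 in controls, all with overlap.

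Shaw-type channels open and close fast and support rapid firing. Kcnc2 (GRCm38 chromosome 10, 112271121 to 112467024, plus strand) had 655.1, 730.5 and 719.1 in Zeb2 mutant retinas, against 553.7, 603.2 and 576.3 in control retinas. Every mutant library was above every control library, and the log2 fold change was 0.28 ± 0.072 (SE; limma adjusted p = 0.0984). Kcnc4 lay higher in mutants too, averaging 486 ± 36.3 in mutants and 402 ± 49.8 in controls (limma adjusted p = 0.227), and Kcnc1 averaged 1181 ± 134 in mutants and 1327 ± 64.3 in controls with overlap.

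The Shaker-type genes were led by Kcna5, with 1881.9, 1390.3 and 1631.1 in Zeb2 mutant retinas, against 1902.9, 1816 and 1854.9 in control retinas. Mutant library 2 was far below the other 5 libraries, and mutant library 1 lay within the control range (limma adjusted p = 0.346). Kcna2 averaged 935 ± 49.4 in mutants and 874 ± 15.2 in controls and Kcna4, which gives an A-type current, 118 ± 7.42 in mutants and 93.9 ± 15.9 in controls. In both, all mutant libraries exceeded all controls, at log2 fold changes of 0.097 and 0.34 (limma adjusted p = 0.456 and 0.313). Kcna6, Kcna1 and Kcna3 overlapped between the groups, with averages of 571, 103 and 82.2 in mutants against 641, 93.0 and 88.5 in controls. Of the exonic length of Kcna6, 39.6% is shared with a gene on the opposite strand. Whether reads were counted by strand is not stated in the sources used here, so reads of such gene pairs cannot be told apart.

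Kcnq3, which contributes to the M-current that restrains repetitive firing, averaged 513 ± 64.1 in mutants and 527 ± 35.1 in controls, and its log2 fold change had a 95% interval of -0.28 to 0.19. The lower Kcnq5 averaged 24.7 ± 3.56 in mutants and 29.3 ± 10.9 in controls, and in both the groups overlapped. Of the 6 kept Kcnf, Kcng, Kcns and Kcnv genes, whose products modify other channels and do not conduct alone, Kcng1 was higher without overlap, at 32.4 ± 1.23 in mutants and 24.6 ± 2.65 in controls (limma adjusted p = 0.389), as was Kcnv2. Kcns2 and Kcnf1 averaged 160.0 and 117 in mutants against 173 and 135 in controls, and Kcns1 and Kcnv1 averaged 17.7 and 25.2 in mutants against 15.7 and 20.2 in controls.

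**Figure D3:**
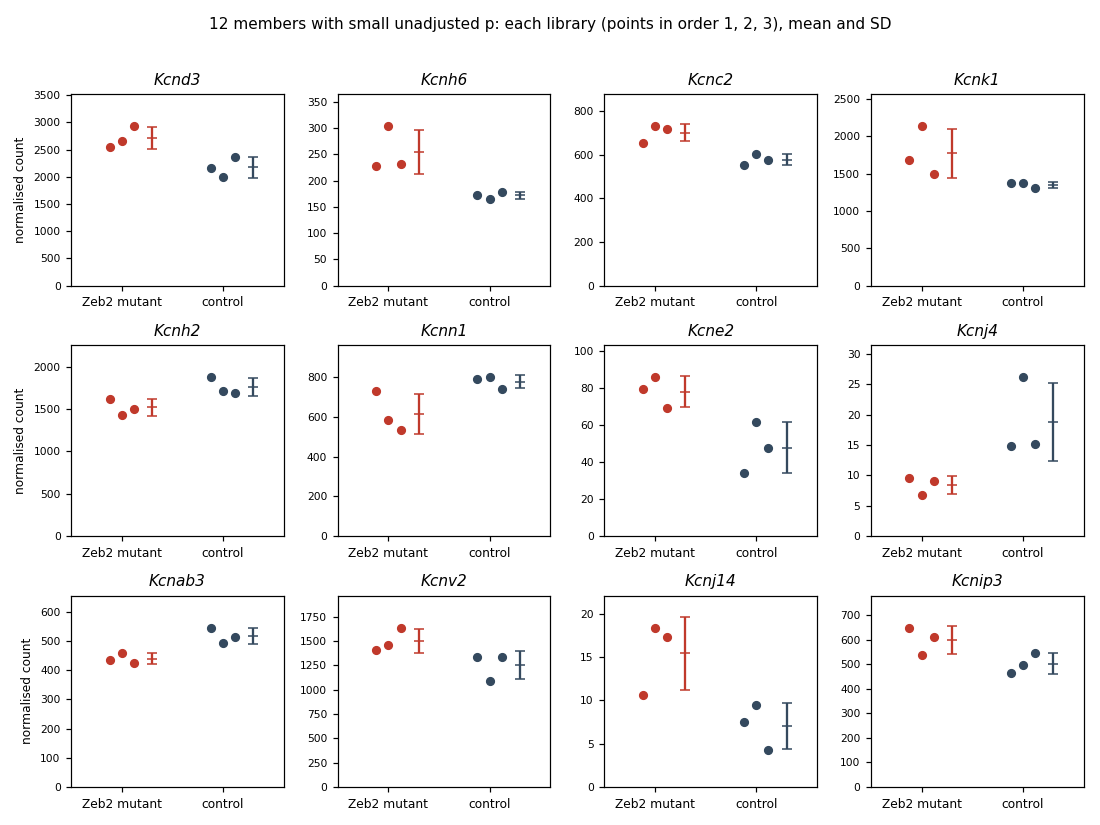
Normalised counts (vertical axes, from 0) in each library of 12 members with small unadjusted p, Zeb2 mutant at the left and control at the right, with the mean and SD of 3 libraries. In all but Kcnip3 the groups do not overlap, and limma adjusted p ranged from 0.0845 for Kcnd3 to 0.218 for Kcnip3.

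The 10 inward rectifiers, a set without Kcnj10, were the least abundant subfamily. The summed level of these members was 697 ± 56.3 normalised counts in mutants and 733 ± 55.1 in controls (SD, n = 3 each). Their largest differences came from genes with few reads. Kcnj4, a strong rectifier, had 9.5, 6.8 and 9.1 in Zeb2 mutant retinas, against 14.9, 26.2 and 15.2 in control retinas, from 25 recovered reads in all mutants and 57 in all controls. The groups did not overlap, and the log2 fold change was -1.03 with a 95% interval of -1.78 to -0.28 (limma adjusted p = 0.158). Kcnj14 went the other way, with 10.6, 18.4 and 17.3 in Zeb2 mutant retinas, against 7.5, 9.4 and 4.2 in control retinas, from 46 reads in mutants and 21 in controls. Its log2 fold change was 1.05 with an interval of 0.18 to 1.93 (limma adjusted p = 0.205).

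Kcnj12, another strong rectifier, had 50.7, 42.6 and 42.7 in Zeb2 mutant retinas, against 42.6, 109.1 and 57.5 in control retinas. Control library 2 stood far above the other 5. The lens crystallin and lens fibre genes on a list of 4 summed to 7322 normalised counts in that same control library. They summed to 519 to 2789 in mutants and to 1014 and 2074 in the other controls. Cryaa made up most of the 7322, at 6152.8, whereas Crygs was highest in mutant library 3, at 107.7 against 90.2 in control library 2. The part of the lens genes in the result was not tested. The G-protein-gated genes Kcnj3, Kcnj5, Kcnj6 and Kcnj9 overlapped between the groups. Kcnj9 had 210.3, 163.5 and 198 in Zeb2 mutant retinas, against 209.8, 186.7 and 179.4 in control retinas, and Kcnj3 had 144.8, 108.4 and 157.4 in Zeb2 mutant retinas, against 121.4, 164.7 and 148.9 in control retinas. Their 95% intervals were -0.31 to 0.28 and -0.50 to 0.32 on the log2 scale, and 31.1% of the exonic length of Kcnj3 is shared with an opposite-strand gene. Kcnj5 had 19, 18.4 and 26.4 in Zeb2 mutant retinas, against 12.8, 13.6 and 18.6 in control retinas (limma adjusted p = 0.431). Kcnj6 and the strong rectifier Kcnj2 averaged 27.5 and 27.9 in mutants against 29.5 and 25.0 in controls.

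Kcnj11 had 211.3, 222.5 and 208.2 in Zeb2 mutant retinas, against 222.6, 211.9 and 225.1 in control retinas. The groups overlapped closely, with a log2 fold change of -0.039 and an interval of -0.26 to 0.18. Its sulfonylurea receptor partner Abcc8 averaged 127 ± 17.3 in mutants and 178 ± 22.2 in controls without overlap (log2 fold change -0.49, limma adjusted p = 0.148). The second ATP-sensitive pair, Kcnj8 and Abcc9, known from pericytes, were low. Kcnj8 had 8.5, 5.8 and 14.2 in Zeb2 mutant retinas, against 5.3, 11.5 and 15.2 in control retinas. Abcc9 averaged 34.5 ± 15.8 in mutants and 35.7 ± 15.2 in controls. The summed level of 6 mural cell markers was 1485 to 1586 in mutants and 1259 to 1747 in controls. Of these markers, 3 had positive and 3 negative fold changes. The most abundant, Notch3, was higher in every mutant library than in every control.

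Two-pore channels carry background potassium current. Kcnk1 (GRCm38 chromosome 8, 125995170 to 126030685, plus strand) had 1689.6, 2136.3 and 1492 in Zeb2 mutant retinas, against 1382.2, 1370.1 and 1303.2 in control retinas, with every mutant library above the controls. The mutant values were widely spread, with library 2 highest and library 3 nearest to the controls, while the controls lay within 1303.2 to 1382.2. The log2 fold change was 0.38 ± 0.11 (SE), or 1.31-fold (limma adjusted p = 0.141, DESeq2 adjusted p = 0.0157). Astrocyte markers were also high in mutant libraries 1 and 2: 5 genes summed to 6018, 4647 and 761 in the mutants against 478 to 922 in controls, with none at 0. In mutant library 3 the sum lay within the control range, although Pax2 and Aldh1l1 were above every control. The log2 difference of Kcnk1 between that library and the controls was 0.14, a value of 1 library given without a test, and the part of the markers in the result was not tested. Of the exonic length of Kcnk1, 8.01% is shared with an opposite-strand gene.

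The rest of the two-pore family was lower in level. Kcnk3, an acid-sensitive leak channel, had 228.2, 204.1 and 230.5 in Zeb2 mutant retinas, against 253.4, 269.6 and 239.5 in control retinas, without overlap (log2 fold change -0.20, limma adjusted p = 0.357). The mechanosensitive channel Kcnk2 had 306.4, 265.1 and 279.3 in Zeb2 mutant retinas, against 328, 270.7 and 337.6 in control retinas, with overlap. Kcnk12, a silent member of the halothane-inhibited group, had 26.4, 28.1 and 19.3 in Zeb2 mutant retinas, against 23.4, 10.5 and 18.6 in control retinas (limma adjusted p = 0.472). The other 6 (Kcnk4, Kcnk5, Kcnk6, Kcnk9, Kcnk10 and Kcnk13) averaged 18.3 to 76.6 in mutants and 15.3 to 78.7 in controls, and all overlapped. Kcnk10 was close in every library, with an interval of -0.37 to 0.30 on the log2 scale.

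Of the 8 calcium- and sodium-activated channels, Kcnn1 (GRCm38 chromosome 8, 70842049 to 70863258, minus strand), a small-conductance channel of the afterhyperpolarisation, had 730.2, 586.3 and 536.3 in Zeb2 mutant retinas, against 791.2, 802.5 and 742.1 in control retinas. The controls lay within 742.1 to 802.5, mutant library 1 just below them, and mutant libraries 2 and 3 further down. The log2 fold change was -0.35 ± 0.11 (SE; limma adjusted p = 0.153). limma's call depended on mutant library 1: without it the log2 fold change was -0.47 and passed (limma adjusted p = 0.0211), the only member called with a single library left out, where 3.74% of all tested genes were called, 1.51% lower. The sum of amacrine cell markers was lower in the mutants as well. Their 7 genes, none at 0, summed to 31289.8 to 38898 in mutants against 43183 to 46382 in controls. All 7 had negative fold changes, but for Gad1 and Slc6a9 the groups overlapped. Slc6a9 had 1674.8 in mutant library 3, above its control maximum of 1394.6. The part of these markers in the result was not tested.

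The other small-conductance genes did not follow one direction. Kcnn2 had 218.7, 162.5 and 219.4 in Zeb2 mutant retinas, against 223.6, 213 and 217.5 in control retinas, with only mutant library 2 apart. Kcnn3 had 44.4, 66.8 and 30.5 in Zeb2 mutant retinas, against 13.8, 47.2 and 32.2 in control retinas, so that the libraries of each group were widely spread. Kcnn4, the intermediate-conductance channel of blood and immune cells, had 19, 29 and 24.4 in Zeb2 mutant retinas, against 12.8, 19.9 and 14.4 in control retinas (limma adjusted p = 0.331). The large-conductance channel Kcnma1 had 266.3, 242.8 and 294.5 in Zeb2 mutant retinas, against 262, 259.1 and 271.6 in control retinas. Its log2 fold change of 0.015 had an interval of -0.22 to 0.25. Of the sodium-activated pair, Kcnt1 averaged 142 ± 10.2 in mutants and 139 ± 27.4 in controls, and Kcnt2 had 8.5, 18.4 and 16.3 in Zeb2 mutant retinas, against 20.2, 18.9 and 21.2 in control retinas, without overlap but with only mutant library 1 far from the rest (limma adjusted p = 0.463). Kcnu1, known from sperm and placed in this subfamily by its name only, averaged 31.2 ± 6.72 in mutants and 29.2 ± 8.43 in controls.

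The auxiliary subunits summed to 5002 ± 333 normalised counts in mutants and 5322 ± 119 in controls (SD, n = 3 each), with a median log2 fold change of -0.11. Kcne2, a single-pass subunit that joins several voltage-gated channels, had 79.3, 86.1 and 69.1 in Zeb2 mutant retinas, against 34.1, 61.9 and 47.4 in control retinas. The groups did not overlap, and the log2 fold change was 0.73 with an interval of 0.20 to 1.27 (limma adjusted p = 0.156). It rested on 232 recovered reads in mutants and 147 in controls.

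The 3 beta subunits of Shaker-type channels all had negative fold changes. Kcnab3 had 435.4, 460.5 and 425.5 in Zeb2 mutant retinas, against 547.3, 493.1 and 516.2 in control retinas, without overlap (log2 fold change -0.24 ± 0.076 SE, limma adjusted p = 0.159); 5.13% of its exonic length is shared with the opposite-strand gene Kcnab3os. Kcnab1 had 361.4, 328 and 408.3 in Zeb2 mutant retinas, against 406.8, 397.6 and 462.9 in control retinas. Kcnab2 had 2198.9, 1921.5 and 1936.8 in Zeb2 mutant retinas, against 2104.1, 2231.4 and 2190 in control retinas. In both, mutant library 2 was the lowest of the 6 and the groups overlapped (limma adjusted p = 0.356 and 0.408).

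Calcium-binding subunits of the A-type channels, the Kcnip genes, split 2 and 2. Kcnip3, which also acts as a transcriptional repressor, had 650.9, 538.9 and 613.4 in Zeb2 mutant retinas, against 466.4, 496.2 and 548.3 in control retinas. The lowest mutant lay below the highest control (log2 fold change 0.25, limma adjusted p = 0.218). Kcnip1 had 1149.7, 934.6 and 964.8 in Zeb2 mutant retinas, against 1173.5, 1041.7 and 1202.5 in control retinas. Kcnip4 averaged 191 ± 13.1 in mutants and 220.3 ± 17.2 in controls without overlap (limma adjusted p = 0.391), and Kcnip2 averaged 49.7 ± 5.72 in mutants and 39.3 ± 8.33 in controls. The large-conductance channel subunits Kcnmb4 and Kcnmb2 both overlapped between the groups: Kcnmb4 averaged 220.2 ± 9.04 in mutants and 239.7 ± 23.2 in controls, and Kcnmb2 had 23.2, 15.5 and 21.3 in Zeb2 mutant retinas, against 21.3, 15.7 and 9.3 in control retinas.

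A single library shaped the median over all members. Mutant library 2 held the lowest value of the 6 libraries for 30 of 70 members, or 42.9%, beside 22.0% of all tested genes. The median log2 distance of the members from the control mean was -0.18 in that library, against 0.016 and 0.016 in mutant libraries 1 and 3 and -0.037 to 0.040 in the controls. It lay below 0 in every subfamily, from -0.27 for inward rectifiers to -0.080 for two-pore channels, but was not set apart in each. Among inward rectifiers, control libraries 1 and 2 lay at -0.22 and 0.20. Among two-pore channels, mutant library 3 lay at -0.069. Without mutant library 2 the members' median log2 fold change was 0.021, while that of the auxiliary subunits stayed below 0, at -0.080. Kcna5, Kcnh7 and Kcnn2 were among the members lowest there, whereas Kcnk1 and Kcnh6 were highest there.

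**Figure D4:**
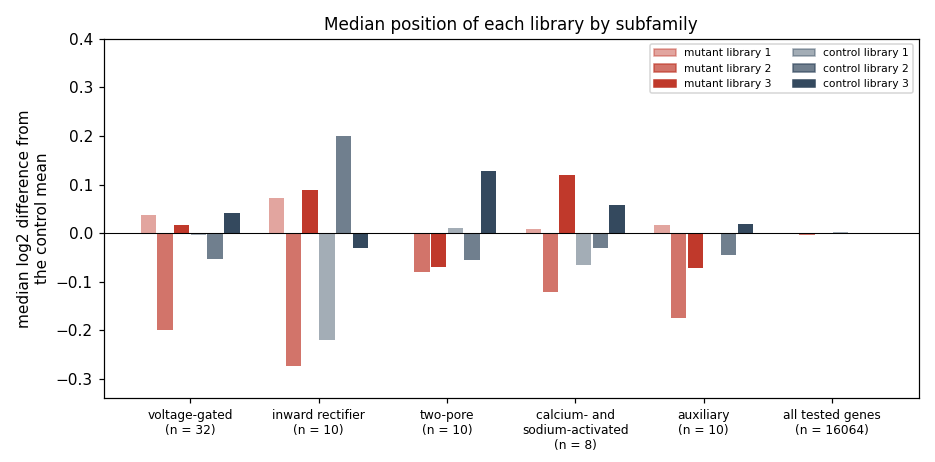
Median over the members of a subfamily of the log2 difference of each library from the mean of the 3 controls (vertical axis), for the 5 subfamilies and for all 16064 tested genes, mutant libraries in red and control libraries in dark shades. Mutant library 2 lies below 0 in all 5 subfamilies, while the medians of all tested genes lie at about 0 in every library.

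Cell type markers moved beside these values. Rod markers (8 genes) summed to 35343 to 45302 normalised counts in mutants against 28506 to 36038 in controls. Cone markers (6 genes) summed to 12294 to 14841 in mutants against 10615 to 11963 in controls. All 14 had positive fold changes, and none was at 0. limma called 4 of the 14, beside 0.928% of all tested genes called higher. Kcnv2, the photoreceptor subunit, lay higher in the mutants as well, and the part of the markers in that was not tested. Horizontal cell markers (5 genes, none at 0) summed to 957 to 1183 in mutants and 1422 to 1505 in controls. Of these, 4 had negative fold changes, 2 of them called by limma, beside 0.218% of all tested genes called lower. The exception, Calb1, had 144.8 to 168.6 in mutants and 112.3 to 136.2 in controls (limma adjusted p = 0.222). Mesenchyme markers (6 genes) summed to 7871, 3513 and 1698 in mutant libraries 1, 2 and 3 and to 1547 to 1972 in controls. Pdgfra made up most of the sum in mutant library 3, at 1570.2, and in the controls, at 1393.2 to 1678.9. Lum was at 0 in mutant library 3 and control library 1. In bulk tissue, fewer cells of a type and less RNA per cell cannot be told apart.

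Genes that work beside potassium channels were read from 5 lists in the same fit. Over all tested genes limma called 0.928% higher and 0.218% lower. Of 10 tested partners without a Kcn name, it called 1 higher and none lower. That gene was Cntnap2, an adhesion protein that clusters Shaker-type channels along axons, with 2545.5, 2918.1 and 2786.9 in Zeb2 mutant retinas, against 2065.8, 1878.9 and 2162.1 in control retinas. It rose by a log2 fold change of 0.43 ± 0.070 (SE; limma adjusted p = 0.0277), but leaving out mutant library 2 or 3 raised its adjusted p to 0.108 or 0.0836, and leaving out control library 1 or 2 raised it to 0.122 or 0.0676. Dpp6, a subunit of the A-type channels and the most abundant partner, averaged 2777 ± 31.2 in mutants and 2584 ± 232 in controls (limma adjusted p = 0.44). Of 17 tested voltage-gated calcium channel genes 1 was called, Cacna2d1, an alpha2delta subunit, with 1153.9, 1269.4 and 1277.7 in Zeb2 mutant retinas, against 881.7, 919 and 945.2 in control retinas. It rose by a log2 fold change of 0.43 ± 0.062 (SE; limma adjusted p = 0.0218), but the adjusted p became 0.0811 or 0.0583 once mutant library 2 or 3 was left out, and 0.106, 0.0538 or 0.0510 with control library 1, 2 or 3 left out.

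No other gene on these lists was called by limma, and edgeR called 1 calcium channel gene. Of the 17 calcium channel genes, 7 had an unadjusted limma p under 0.05, 5 of them higher, beside 17.3% of all tested genes. DESeq2 called 4 of them, all higher, beside 5.4% of all genes, or 3.32% called higher. In 6 every mutant library was above every control, and in 2 every mutant library was below. Over all tested genes, 11.5% lay above and 11.7% below. In the calcium channel list, Cacna1h averaged 5996 ± 144 in mutants and 6905 ± 682 in controls and Cacnb3 4008 ± 117 in mutants and 4060.4 ± 141 in controls. None of the 4 HCN pacemaker channels was called by limma, edgeR or DESeq2, and 0 had an unadjusted limma p under 0.05; Hcn4 averaged 1528 ± 158 in mutants and 1712 ± 65.7 in controls. Of 12 sodium channel genes tested, limma and edgeR called 0, DESeq2 called 1, and 2 had an unadjusted limma p under 0.05; Scn3b averaged 1477 ± 49.9 in mutants and 1454 ± 103 in controls and Scn8a 1023 ± 20.4 in mutants and 1103 ± 41.0 in controls. Of 13 genes of the sodium-potassium pump and chloride cotransport, limma, edgeR and DESeq2 called 0 and 1 had an unadjusted limma p under 0.05. The pump subunit gene Atp1b2 averaged 27172 ± 1793 in mutants and 24356 ± 1771 in controls.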

How the data were processed

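RNA-seq was made from 3 Zeb2 mutant and 3 control retinas at P2, grouped by their titles. The authors deposited normalised counts, a signal per gene rounded to 1 decimal, with gene IDs and names per the file headers. Per the submitters' processing notes, cutadapt, STAR 2.4.2a, HTSeq, DESeq2 and GRCm38 were named; the roles and the strand setting are not given in the sources used here. All values in a library were whole multiples of 1 number within 0.06, so reads were recovered, and the scaling puts libraries on a common depth. There were 0 other columns of values.

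Genes averaging 10 or more normalised counts, 16064 in all, were tested in limma 3.58.1 (R 4.3.3) on log2(normalised count + 1), with a trended variance, no covariate, 2-sided p-values and Benjamini-Hochberg adjustment at 0.05. DESeq2 1.42.0 and edgeR 4.0.16 were run on recovered reads. Of the gene IDs, 20115 of 20175 and those of all 70 members matched GENCODE M21. The code was tested on simulated data. By rule, per-library values are given for the 4 members of each subfamily with the smallest unadjusted p and the 3 with the highest mean. These are 27 in all, mostly given as such and otherwise as mean ± SD. Some members outside this rule also have per-library values, among them Kcnv2 and Kcnj8. Of 5 partner lists, called genes and the 2 most abundant are named. Some genes that this rule covers are not reported here by name. Members and lists were chosen with earlier results of these data known, so no pattern already seen is independent support. Intervals cover the spread between 3 libraries a group. Other settings were pseudocounts of 0.1 and 5, no minimum, a minimum of 50, 3 other scalings, both count tools, a replicate block and leaving libraries out.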

Additional observations from a re-analysis of the deposited data

How the results depend on the processing

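No potassium channel gene was called by limma under 2 other pseudocounts, 2 other minimums, 3 other scalings or edgeR. DESeq2 called 4 members higher; 868 of all genes, against 184, and Zeb2 (log2 fold change -0.30) passed it. Leaving out 1 library gave 0 to 1 members lower in mutants, 27 to 600 genes in all, and a Zeb2 log2 fold change of -0.40 to -0.20. Without a minimum 26 genes were called, and neither Cntnap2 (limma adjusted p = 0.0967) nor Cacna2d1 (limma adjusted p = 0.0688) was among them. Leaving out mutant libraries 1 and 2 together kept 1 mutant library, assumed to vary like the controls, so only its values are given here.

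Replicate numbers in the titles were not used to pair libraries, as deviations from the group means correlated at 0.016, 0.15 and -0.063 for numbers 1, 2 and 3, and not every library correlated best with its own number. With the replicate block, 248 genes and 1 member, Kcnd3 (limma adjusted p = 0.0472), were called.

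Of all 70 members, 22 changed sign under at least 1 of 17 alternatives; of the 36 members and partner genes that the naming rule chose, 6 did. Over the fits that left out 1 library, the log2 fold change ran from -0.21 to 0.069 for Kcnj3, -0.090 to 0.091 for Kcnj9, -0.055 to 0.084 for Kcnma1, -0.21 to 0.0070 for Kcnn2, -0.034 to 0.065 for Scn3b and -0.043 to 0.010 for Cacnb3. Without mutant libraries 1 and 2 it was 0.13 for Kcnj3, 0.048 for Kcnj9 and 0.0093 for Kcnn2. Quantile scaling gave -0.026 for Kcnma1 and 0.014 for Cacnb3. The two-pore median of -0.020 became -0.12 under quantile scaling and -0.13 with a minimum of 50, and the calcium- and sodium-activated median of 0.027 became -0.020 and -0.060. The cause was not tested. With 3 libraries a group, only 36 members, or 51.4%, had an interval within 0.5 of 0 on the log2 scale, beside 67.4% of all tested genes. In most low members a change of that size could therefore not be told from none. The part of depth in this was not tested.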
